A study of Macaca mulatta with 26 samples.

Results

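LYPD2, ETV3L, CCDC63 and APOD were chosen by name as little-studied genes of the rhesus macaque pineal gland with some of the greatest excesses over retina, and they are 4 of the 50308 genes measured. The pineal gland releases melatonin into the blood at night, and its pinealocytes share much of their transcription programme with retinal photoreceptors. RNA was sequenced from 12 pineal glands, 12 retinas and 2 control pools of 16 tissues. The animals were 12 rhesus macaques of both sexes, 3 to 33 years old, gathered over 11 years and housed for at least 6 weeks in a cycle of 12 h light and 12 h darkness that began at 0600. Pineal gland and retina had 3 libraries each per collection window, which were dawn at 0500 to 0700, mid-day at 1100 to 1300, then dusk at 1700 to 1900, and finally midnight at 2300 to 0100. Tissue was removed within 45 min. The labels name no genotype and no treatment beyond the light cycle, and animals taken at dusk and midnight were blindfolded and anaesthetised in dim red light. The control pools, 1 from mid-day and 1 from midnight, mixed 7 brain regions with pituitary, testis, ovary and visceral and muscle tissues.

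The 4 genes come from unrelated families. LYPD2 encodes a small protein of the Ly6/uPAR family, whose three-finger fold is usually tethered to the outer cell membrane, and some relatives bind nicotinic acetylcholine receptors. ETV3L encodes an ETS-domain transcription factor and is the paralogue of the repressor ETV3. CCDC63 encodes a coiled-coil protein related to the complex that docks outer dynein arms on the axoneme, and in the mouse it is needed to form the sperm flagellum. APOD encodes apolipoprotein D, a lipocalin that carries small hydrophobic molecules and is made by glia and by fibroblasts of many tissues. APOD is a well studied gene, so "little-studied" describes the other members better.

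Levels are FPKM, fragments scaled to the length of the gene model and to the library, and the step between low values of a gene gave its whole reads. The depth so recovered was 11.7 to 16.1 M gene-assigned reads in the pineal gland, 16.9 to 21.4 M in retina, 23.0 M in the mid-day pool and 16.2 M in the midnight pool. Of 13 listed pinealocyte markers, 12 averaged at least 1 FPKM in pineal gland and 1 was at 0 in every pineal library. TPH1, the first enzyme of serotonin and melatonin synthesis, was at 584.2 ± 116.2 FPKM (SD, n = 12) in pineal gland and ASMT, the last, at 148.8 ± 31.2. The pineal dusk 3 library stood apart. All 15 markers of spermatids examined, a list chosen after their reads were seen, had more reads there than in any other pineal library, and their summed level was 854.5 FPKM against 1.56 to 2.82 in the other 11 pineal libraries. PRM1, a protamine that packs sperm DNA, had 1355 reads in that library and at most 1 in any other pineal library. The same list summed to 2107 FPKM in the midnight pool and 10.2 in the mid-day pool, and both pools are labelled as containing testis. The 4-time tests of the members, their differences that involve dusk and the relation that passed are therefore also given without it. Among the retinas, dawn 2 and mid-day 1 had no read for 44.8% and 45.7% of genes, and for the other 10 libraries this share was 33.5% to 35.2%.

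In the pineal gland the members lay among the abundant transcripts. APOD averaged 235.3 ± 64.7 FPKM (SD, n = 12), LYPD2 157.1 ± 65.9, ETV3L 117.3 ± 28.9 and CCDC63 115.6 ± 42.0. These means ranked 30, 64, 119 and 121 among all 50308 genes. ETV3L and CCDC63 did not differ beyond their spread, and LYPD2 overlapped both. In bulk tissue, fewer cells of a type and less RNA per cell cannot be told apart.

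**Figure D1:**
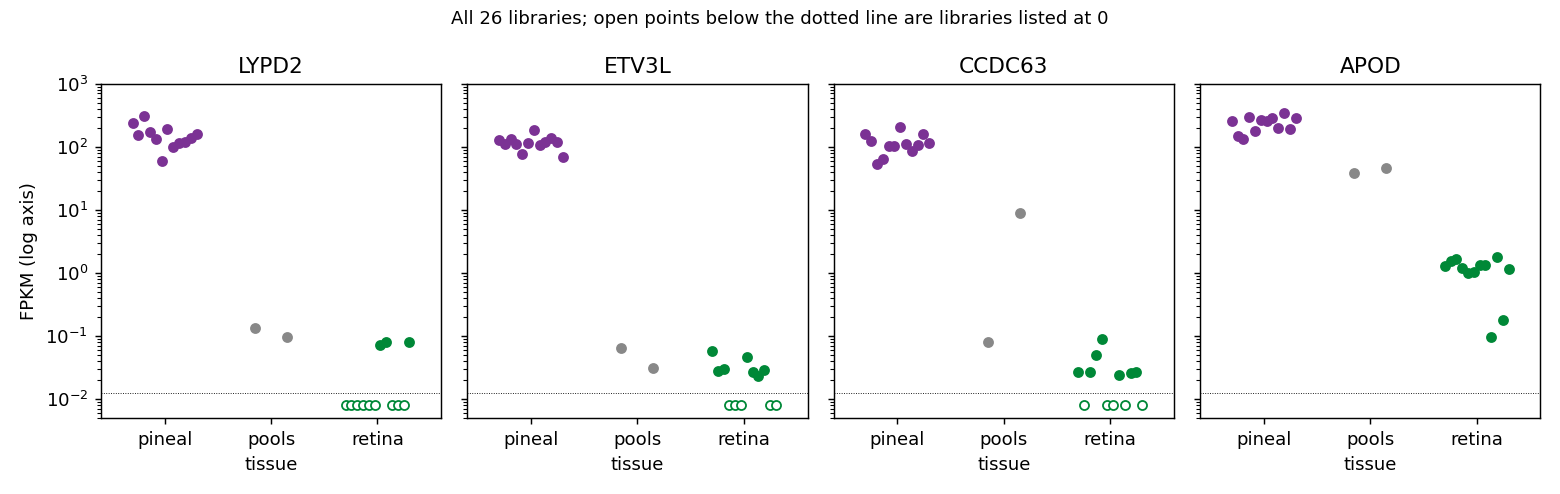
FPKM of LYPD2, ETV3L, CCDC63 and APOD (log axis) in 12 pineal libraries, 2 control pools (mid-day left, midnight right) and 12 retina libraries, with each point 1 library and libraries listed at 0 drawn open under the dotted line. LYPD2 and ETV3L are listed at under 0.2 FPKM in every retina library and both pools, CCDC63 reaches 8.93 FPKM in the midnight pool alone, and APOD is at 38.4 and 46.2 FPKM in the pools.

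The pineal excess over retina chose these genes, so it is given as a description with no test. On the log2(FPKM + 0.5) scale the mean difference of pineal gland over retina was 8.13 for LYPD2, 7.78 for ETV3L and 7.71 for CCDC63, ranks 1, 2 and 3 of all genes. APOD ranked 5 at 7.22. Just around it lay 2 genes that are not members, the choline transporter SLC5A7 at rank 4 (7.44) and the serotonin transporter SLC6A4 at rank 6 (7.20). AANAT, whose product sets the nightly rhythm of melatonin synthesis, was at 52.2 FPKM in pineal gland and 58.0 in retina and so had no excess of this kind. The choice by excess over retina leaves out such genes shared by pinealocytes and photoreceptors.

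LYPD2 had almost no reads in retina or in the pools, the other samples measured. In a pool, a gene of 1 tissue is diluted by the others, and markers of stratified epithelium summed to 4.50 and 1.36 FPKM there. In the pineal libraries it had 536 to 2612 reads each. The 12 retina libraries held 3 LYPD2 reads in all, 1 each in dusk 1, dusk 2 and midnight 3, and the other 9 listed it at 0, which allows up to 0.216 to 0.273 FPKM in a library. Per read assigned, pineal gland exceeded retina 7574-fold, with an exact 95% interval of 2591 to 36733 that covers counting error only. The mid-day pool held 2 LYPD2 reads (0.134 FPKM) and the midnight pool 1 (0.0952 FPKM). Pineal gland exceeded the 2 pools together 1322-fold per read (452.2 to 6410). The order of levels was pineal gland, then pools and retina, and the pools and retina are not separated at this depth.

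ETV3L showed the same picture with more reads behind it. It had 1680 to 5593 reads in each pineal library. In retina 5 of 12 libraries listed it at 0 and the other 7 reached at most 0.0591 FPKM, with 9 reads in all. The ratio of pineal gland to retina per read assigned was 5860 (3087 to 12816). The mid-day pool held 3 reads (0.0660 FPKM) and the midnight pool 1 (0.0312 FPKM), a ratio of 2301 (898.6 to 8445) for both pools together. Of 1975 genes at 20 FPKM or more in every pineal library, ETV3L and LYPD2 were the 2 listed at under 0.2 FPKM in every retina library and both pools. These limits were set after the values were seen and compare listed values, since a 0 for LYPD2 in retina allows more than 0.2 FPKM. With the pools left out of the rule, CCDC63 joined them and the count was 3.

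CCDC63 was as scarce in retina as the first 2 genes but differed between the pools. Retina held 11 CCDC63 reads in all, 5 of 12 libraries listed it at 0 and the highest, mid-day 2, was at 0.0911 FPKM. Pineal gland exceeded retina 5164-fold per read (2886 to 10346). The mid-day pool had 4 reads (0.0802 FPKM), while the midnight pool had 314 reads (8.93 FPKM). Against the mid-day pool the pineal ratio was 1454 (567.8 to 5336), and against the midnight pool it was 13.1 (11.7 to 14.6). Each pool is 1 library, so their difference has no replicate check. All 15 spermatid markers were also higher in the midnight than in the mid-day pool, and their part in the CCDC63 level there was not tested.

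Pineal dusk 3, the library with spermatid reads, had CCDC63 at 85.6 FPKM, below the median of 110.1 over the 12 pineal libraries. The highest CCDC63 level, 204.5 FPKM in dusk 1, was in a library whose spermatid sum lay in the range of 1.56 to 2.82 FPKM. The part of spermatid RNA in the pineal CCDC63 level was not tested.

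**Figure D2:**
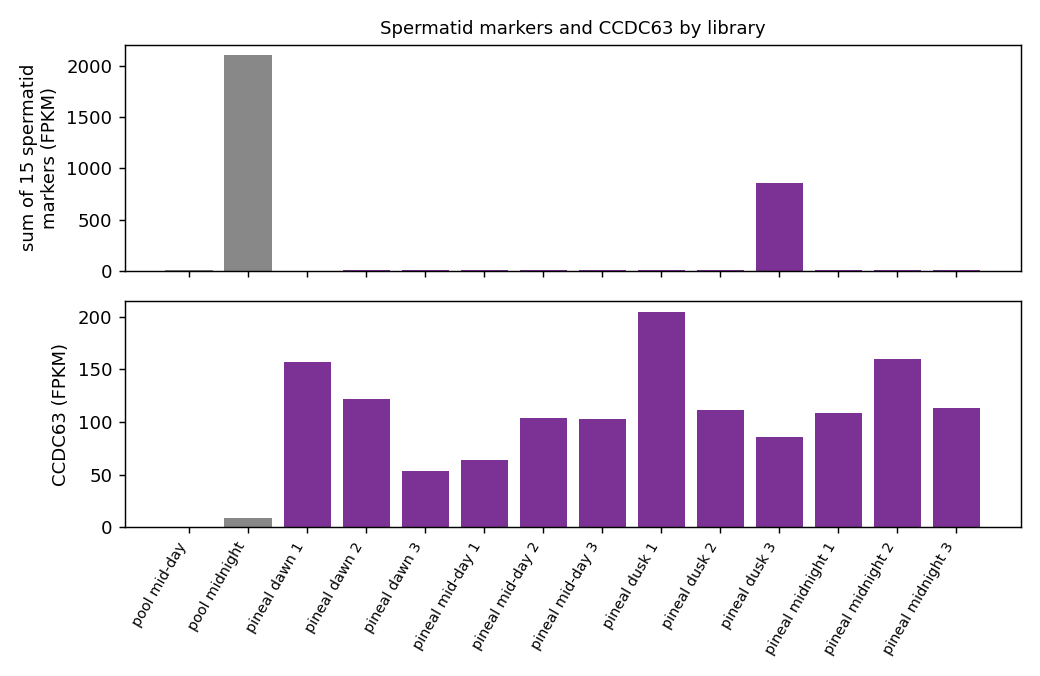
Summed FPKM of 15 spermatid markers (upper bars) and FPKM of CCDC63 (lower bars) in the 2 control pools (grey) and the 12 pineal libraries (purple). The spermatid sum is high in the midnight pool (2107) and in pineal dusk 3 (854.5), while CCDC63 is at 53.9 FPKM or more in every pineal library and at 85.6 in dusk 3.

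APOD was enriched in the pineal gland without being particular to it. The pools had 1706 and 1447 APOD reads, 38.4 FPKM at mid-day and 46.2 at midnight. Pineal gland exceeded them 5.70-fold per read (5.50 to 5.91), and APOD ranked 400 among all genes by its excess over the pools, 2.41 on the log2(FPKM + 0.5) scale. By the same measure LYPD2 ranked 5 (7.89), ETV3L 10 (7.71) and CCDC63 38 (5.54). TPH1 ranked 1 in that list, and ASMT, at 8, lay between LYPD2 and ETV3L. Against the pools, which did not choose the members, the label "most specific to pineal" does not describe APOD.

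The APOD level in retina was low, with 2 libraries well under the rest. Its values were 1.27, 1.52 and 1.65 FPKM at dawn, 1.20, 0.996 and 1.02 at mid-day, 1.36, 1.36 and 0.0965 at dusk, and 1.81, 0.183 and 1.14 at midnight. There were 36 to 61 APOD reads in each of 10 libraries, whereas dusk 3 had 4 and midnight 2 had 6. Their counting intervals did not reach those of the other libraries. The 2 libraries are of different times, and neither was among the retinas with many genes at 0. Their summed levels of fibroblast and meningeal markers were 13.9 and 18.0 FPKM, beside 10.7 to 32.6 in all retinas, and those of oligodendrocyte markers 18.4 and 19.1, beside 14.005 to 23.2. The cause of the low APOD in these 2 libraries was not tested.

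**Figure D3:**
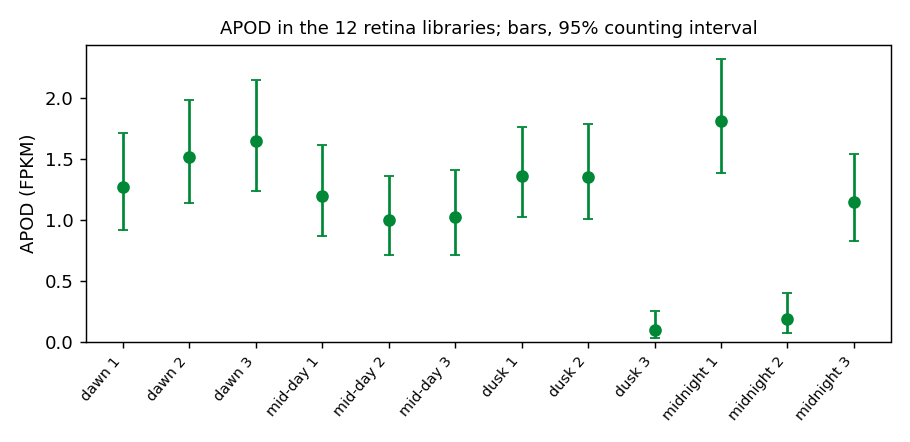
FPKM of APOD in each of the 12 retina libraries, with bars for the exact 95% interval of the read count (counting error only). Dusk 3 (0.0965) and midnight 2 (0.183) lie below the other 10 libraries, which sit between 0.996 and 1.81.

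The members were next compared between times of day, a contrast that did not choose them. The design asks which pineal genes differ around the day, and limma was fitted to the 19110 genes that reached 1 FPKM in 3 or more pineal libraries, as all 4 members did. At a Benjamini-Hochberg adjusted p under 0.05, 20 genes (0.105%) differed over the 4 times, and none was a member. The adjusted p of the F test was 0.449 for LYPD2, 0.551 for APOD, 0.714 for ETV3L and 0.781 for CCDC63. A p over the threshold does not show that the times are alike.

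LYPD2 had the highest mean at dawn. Its libraries were at 234.6, 156.3 and 307.9 FPKM at dawn, 171.8, 130.5 and 59.5 at mid-day, 194.1, 97.9 and 114.5 at dusk and 118.3, 138.7 and 160.5 at midnight. The 2 highest values of the 12 were both from dawn, but dawn overlapped every other time. The sexes were unevenly spread, with XIST above EIF1AY, the mark of a female, in 3 of 3 pineal libraries from mid-day, 2 of 3 from dusk, and 1 of 3 from each of dawn and midnight. The 2 highest LYPD2 libraries were among those with EIF1AY above XIST. With an indicator of that split in the fit, mid-day minus dawn for LYPD2 was -0.84 (limma adjusted p = 0.660). Mid-day was lower than dawn by a log2 difference of -1.02 (SE 0.39), with an unadjusted limma p of 0.0248 and an adjusted p of 0.298, in a comparison in which 6 genes (0.0314%) passed. The difference was -0.58 without mid-day 3 and -1.34 without mid-day 1. Dusk against dawn gave -0.79 (adjusted p = 0.333, limma), where 112 genes (0.586%) passed. Without pineal dusk 3, the limma adjusted p of the 4-time test was 0.528 for LYPD2, 0.559 for APOD, 0.733 for ETV3L and 0.684 for CCDC63, and no member passed with any other single library left out. Without it, dusk minus dawn was -0.70 for LYPD2, 0.20 for ETV3L, 0.58 for CCDC63 and 0.66 for APOD. Dusk minus mid-day was 0.32, 0.49, 0.78 and 0.17 in the same order, and midnight minus dusk was 0.002, -0.42, -0.27 and -0.03. For CCDC63 with all libraries these were 0.31, 0.51 and 0.003. The adjusted p for tissue by time was 0.691, 0.910, 0.809 and 0.758.

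By coefficient of variation, ETV3L varied least among the members. It stood at 127.7, 108.6 and 131.8 FPKM at dawn, 110.8, 78.1 and 115.7 at mid-day, 183.7, 107.1 and 118.6 at dusk, and 138.0, 118.2 and 69.8 at midnight. Its coefficient of variation over the 12 libraries was 24.6%, beside 27.5% for APOD. The highest ETV3L value was 2.63 times its lowest, and for APOD this ratio was slightly lower, at 2.58. The highest value (dusk 1) and the lowest (midnight 3) each stood apart from the other libraries of its time, which lay between 107.1 and 138.0 FPKM. The 6 differences between times ran from a log2 of -0.34 (midnight minus dusk) to 0.40 (dusk minus mid-day), each with an SE of 0.27, and none passed.

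CCDC63 was the member with a pair of times that did not overlap. Its values were 156.9, 121.7 and 53.9 FPKM at dawn, 63.5, 104.2 and 102.7 at mid-day, 204.5, 111.8 and 85.6 at dusk, and 108.5, 159.9 and 113.6 at midnight. All 3 midnight libraries were above all 3 mid-day libraries. This was 1 of 24 comparisons of a member between times without overlap, and 13.4% of all tested genes were without overlap between midnight and mid-day. In the other 5 pairs, in which no member was without overlap, the share of all genes was 16.1% for mid-day and dawn, 8.29% for dusk and mid-day, 22.1% for midnight and dusk, 16.8% for dawn and midnight and 24.6% for dusk and dawn. The difference had a log2 of 0.51 (SE 0.41, limma adjusted p = 0.722), where 8 genes (0.0419%) passed. The highest and lowest CCDC63 libraries, dusk 1 and dawn 3, differed 3.79-fold.

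APOD had its lowest mean at dawn, opposite to LYPD2. It was at 256.4, 145.8 and 130.9 FPKM at dawn, 293.5, 175.2 and 267.8 at mid-day, 255.5, 284.0 and 200.05 at dusk, and 338.0, 193.3 and 282.8 at midnight. The 2 lowest libraries of the 12 were from dawn, yet dawn overlapped each other time through its first library. Dawn minus midnight gave a log2 of -0.64 (SE 0.30, limma adjusted p = 0.539). No gene passed in that comparison (0%), in limma or in voom on the recovered reads, and 1819 had an unadjusted p under 0.05 in limma. Midnight minus dusk, where 11 genes (0.0576%) passed, and dusk minus mid-day, where 4 (0.0209%) did, gave log2 differences of 0.12 and 0.03 for APOD.

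**Figure D4:**
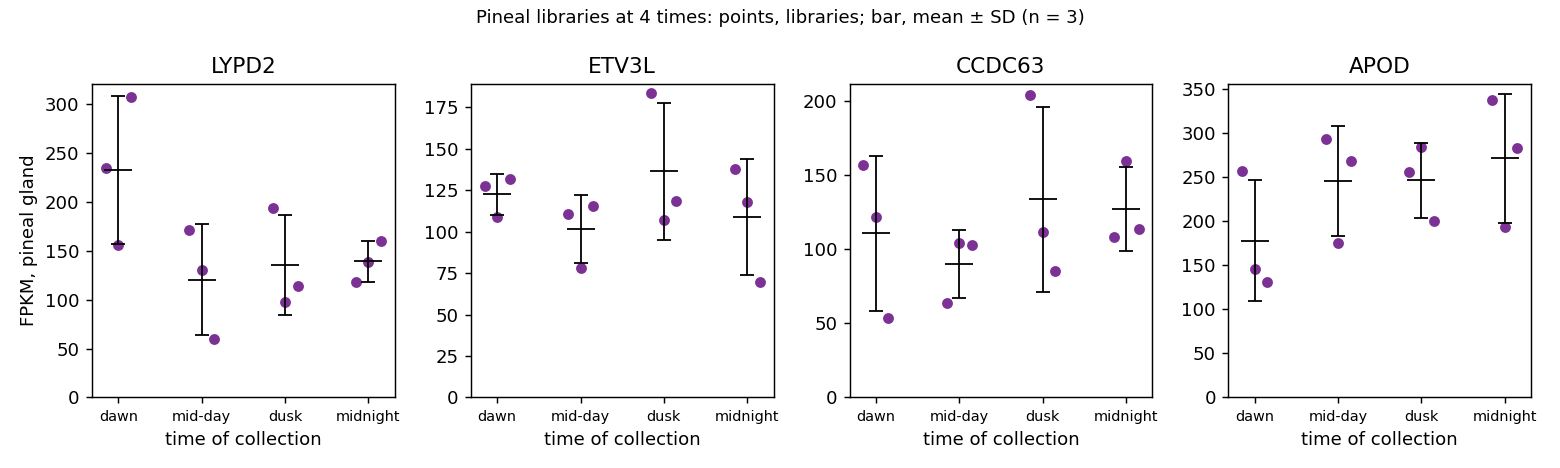
FPKM of the 4 members in pineal libraries at dawn, mid-day, dusk and midnight (each axis from 0), with points for libraries in replicate order and bars for the mean ± SD of 3. LYPD2 has its highest mean at dawn (232.9) and APOD its lowest (177.7), and the points of each pair of times overlap except CCDC63 at mid-day and midnight.

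The authors' deposited table of each pineal time comparison gave the same absence of calls. Over the 4 members and 6 pairs, 0 of 24 adjusted p-values in the authors' deposited tables were under 0.05, and the lowest was 0.114, for LYPD2 in dusk against dawn. For CCDC63 in mid-day against midnight the authors' deposited table had a log2 fold change of -0.44, a p-value of 0.0434 and an adjusted p of 0.610.

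In retina, APOD alone passed the filter on low values. Over the 4 times its limma adjusted p was 0.879, in a fit of 21890 genes in which none passed (0%), with 2234 at an unadjusted p under 0.05 and none passing in voom. The fit of both tissues asked whether the times differ in another way in pineal gland than in retina, and 54 of 24740 genes (0.218%) passed. The limma adjusted p was 0.645 for LYPD2, 0.767 for APOD, 0.886 for CCDC63 and 0.914 for ETV3L. LYPD2, ETV3L and CCDC63 entered this fit through their pineal libraries alone, so for them it largely repeats the pineal time test. XIST was above EIF1AY in 0 of 3 retinas from dawn, 1 of 3 from mid-day, 3 of 3 from dusk and 1 of 3 from midnight. These counts differed from the pineal ones at dawn, mid-day and dusk. With 12 animals for 12 pineal glands and 12 retinas, the same counts would be looked for in both tissues. Whether the tissues came from different animals or a library bears a wrong label was not tested, and the time groups used here rest on the labels. Sex was not balanced between the tissues in this fit.

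The members did not rise and fall as a unit over the 12 pineal libraries. Among their 6 pairs the correlation farthest from 0 was that of LYPD2 and APOD, with Pearson r = -0.39 and Spearman rho = -0.30 on log2(FPKM + 0.5). Its permutation p was 0.217, or 0.686 adjusted over 38 relations computed together, and r was 0.03 without the 2 libraries farthest from the median of LYPD2. The other relations set each member against the summed level of 8 marker lists.

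Of the 38 relations, that of APOD with fibroblast and meningeal markers was the 1 with an adjusted p under 0.05, and it was not shown to differ from the relations of APOD with other lists. Over the 12 pineal libraries r was 0.83 (permutation p = 0.00096, adjusted p = 0.0365) and rho was 0.61 (p = 0.0399, adjusted p = 0.503). The marker sum, of 10 genes such as the collagens COL1A1 and COL1A2, ran from 96.0 FPKM in dawn 3 to 258.9 in midnight 1, and these libraries also had the lowest and the highest APOD. With the 2 libraries farthest from the median, dawn 2 and dawn 3, left out, r was 0.57, and with the mean of each time removed it was 0.74. The relation thus rests in part on those 2 dawn libraries. The adjusted p was over 0.05 without any one of dawn 1, dawn 2, dawn 3, mid-day 3, dusk 1, dusk 3 or midnight 1, while r stayed between 0.75 and 0.93 with each library left out in turn. Without dusk 3 r was 0.84.

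Other lists gave relations of APOD that did not pass. With endothelial and mural markers r was 0.69 (permutation p = 0.0145, adjusted p = 0.121), rho was 0.64 and r without the 2 farthest libraries was 0.60. With astrocyte markers r was -0.58 (permutation p = 0.04996, adjusted p = 0.316). With oligodendrocyte markers r was -0.73 (permutation p = 0.00633, adjusted p = 0.0802). Oligodendrocyte sums were highest in dawn 2, at 462.9 FPKM, where APOD was 145.8. CCDC63 had r = 0.75 with markers of motile cilia (permutation p = 0.00521, adjusted p = 0.0802). Without the 2 farthest libraries r was 0.28, and with the mean of each time removed it was 0.78. Its relation with choroid plexus markers had r = 0.67 (permutation p = 0.0160, adjusted p = 0.121), with 0.66 without the 2 farthest libraries and 0.81 with the time means removed. FOXJ1, the factor that drives motile ciliogenesis, was at 18.0 ± 10.03 FPKM in pineal gland (SD, n = 12) and 0.567 ± 0.244 in retina, and the radial spoke gene RSPH1 at 37.8 ± 10.6 and 2.10 ± 0.53. SPAG6, of the same list, went the other way, at 12.3 ± 4.2 FPKM in pineal gland and 30.8 ± 10.7 in retina. The summed motile cilia markers were at 68.2 to 207.7 FPKM in pineal libraries and 54.4 to 85.2 in retina. The part of ciliated or choroid plexus cells in the CCDC63 level was not tested.

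**Figure D5:**
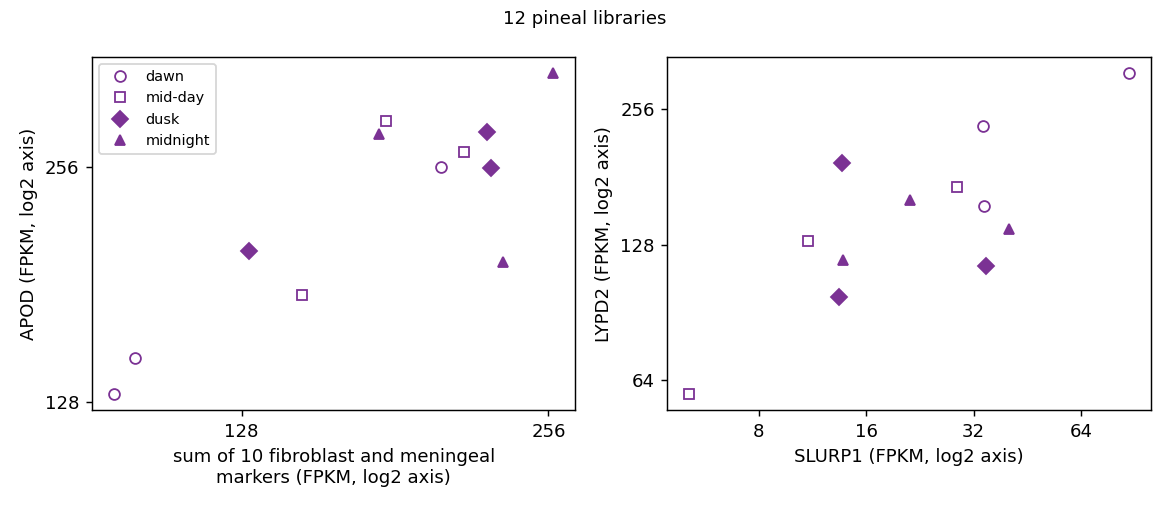
Left, FPKM of APOD against the summed FPKM of 10 fibroblast and meningeal markers, and right, LYPD2 against its neighbour gene SLURP1, both on log2 axes, with each point 1 of 12 pineal libraries and symbols for the time. The 2 dawn libraries at the lower left carry part of the APOD relation (r 0.83 with them and 0.57 without), and LYPD2 and SLURP1 share their lowest and highest libraries (r 0.77, adjusted p = 0.0765).

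A set of 8786 genes with a mean of at least 5 FPKM was compared with each member, without those whose name ends in P and a number. Genes with the most similar pattern over the 12 pineal libraries were named by r among them, as a description in which all points share libraries and depth. For LYPD2 they were P4HTM, a prolyl hydroxylase of the endoplasmic reticulum membrane, with r = 0.96, ERLEC1, a lectin of that compartment's quality control, with 0.95, and SSR4, a subunit of the translocon-associated complex, with 0.93. P4HTM was at 23.2 ± 3.3 FPKM in pineal gland (SD, n = 12) and 19.96 in retina, so the likeness within the pineal gland went with no pineal excess. For ETV3L the closest were SVIP (r = 0.84), ADAM15 (0.80) and B2M (0.80), the light chain of MHC class I. For CCDC63 they were RBPMS2 (0.88), IL13RA1 (0.86) and CACHD1 (0.83). APOD was most like CPED1 (0.95), NOV, a secreted matrix-associated protein (0.93), and KLF5, a transcription factor of proliferating epithelia and smooth muscle (0.93). With the mean of each time removed, r for these 12 genes was between 0.81 and 0.95.

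Set beside their families, LYPD2, ETV3L and CCDC63 each had the highest mean level in pineal gland. Of 33 Ly6/uPAR genes in the table, LYPD2 (157.1 FPKM) was followed by CD59 at 41.8 ± 6.0 (SD, n = 12), which protects cells from complement, and SLURP1 at 28.1 ± 21.8, a secreted ligand of nicotinic receptors. Of 28 ETS factors, ETV3L (117.3 FPKM) was followed by ELK4 at 20.1 ± 1.7 and ELF1 at 16.2 ± 2.5. The paralogue ETV3 was at 9.89 ± 1.41 FPKM in pineal gland, 5.83 ± 0.44 in retina and 8.06 and 8.11 in the pools, a narrower range across tissues than that of ETV3L. Among 21 genes of outer dynein arms and their docking, CCDC63 (115.6 FPKM) was followed by the light chains DYNLRB1 at 30.9 ± 1.5 and DNAL1 at 24.8 ± 1.7.

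APOD did not stand alone in its families. Among 20 lipocalins PTGDS, the brain's prostaglandin D synthase, was at 234.5 ± 75.1 FPKM beside APOD at 235.3. Among 21 apolipoprotein genes CLU was higher, at 314.0 ± 29.9, and APOE was at 165.8 ± 18.6. PTGDS was at 76.5 FPKM and APOE at 98.2 in retina, where APOD was at 1.13 ± 0.52.

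None of these families had a gene called between pineal times in limma. In the 4-time test 0 of 14 tested Ly6/uPAR genes, 0 of 19 ETS factors, 0 of 18 outer dynein arm genes, 0 of 8 lipocalins and 0 of 10 apolipoproteins passed, against 0.105% of all genes. An unadjusted limma p under 0.05 was found for 3, 4, 0, 1 and 1 of them, and for 2779 of all 19110 genes tested. Between dusk and dawn the median log2 difference of the 14 tested Ly6/uPAR genes, LYPD2 and SLURP1 included, was -0.69 beside 0.08 for all genes. Between mid-day and dawn it was -0.42 beside 0.04. In each of these comparisons 5 of the 14 had an unadjusted limma p under 0.05 and 0 passed. Of all 19110 genes, 3249 between dusk and dawn and 2602 between mid-day and dawn had such a p. Whether the family differs from other genes was not tested. In dusk minus dawn 112 genes passed with all libraries, 61 without pineal dusk 3 and 0 without pineal dusk 2. The calls of pinealocyte markers between dusk and dawn given next are thus lost without dusk 2. Among 12 tested pinealocyte markers, DRD4, a dopamine receptor known to be rhythmic in the rat pineal gland, was the 1 that passed the 4-time test (limma adjusted p = 0.00683). Between dusk and dawn DRD4 fell by 3.34 on the log2 scale, the nicotinic receptor subunit CHRNA3 by 1.71 and DDC, which makes serotonin, by 1.57, each with a limma adjusted p under 0.05. CHRNB4, another receptor subunit, passed for tissue by time (adjusted p = 0.0407).

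SLURP1 is the protein-coding gene next to LYPD2 in the RefSeq annotation of the macaque assembly T2T-MMU8v2.0, and it shared the pattern of LYPD2 across tissues. It was looked at for its position, after the members were known. Pineal libraries had 34.1, 34.3 and 87.1 FPKM at dawn, 28.8, 11.0 and 5.11 at mid-day, 13.7, 13.4 and 34.8 at dusk and 13.8, 40.3 and 21.2 at midnight. The lowest (mid-day 3) and the highest (dawn 3) libraries were those of LYPD2. Retina averaged 0.186 ± 0.193 FPKM (n = 12), and both pools held 0 reads, which allows up to 0.244 FPKM in the mid-day and 0.346 in the midnight pool. Mid-day minus dawn had a log2 of -1.94 (SE 0.64, limma adjusted p = 0.243).

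Across the 12 pineal libraries SLURP1 and LYPD2 had r = 0.77 (permutation p = 0.0045) and rho = 0.50 (p = 0.0998). Over 17 relations of members with neighbouring genes, computed after the values were seen, the adjusted p of that r was 0.0765, and r was 0.32 without the 2 farthest libraries. None of the 17 passed 0.05. On the other side of LYPD2, LYNX1, also of the Ly6/uPAR family, was at 11.8 ± 4.8 FPKM in pineal gland, 10.3 ± 3.8 in retina and 20.4 and 18.9 in the pools. Its r with LYPD2 was 0.71 (permutation p = 0.0128, adjusted p = 0.109). LYNX1 thus had no pineal excess over the pools. Beyond SLURP1, THEM6 was lower in pineal gland, at 8.22 FPKM against 12.5 in retina, and LY6K after it was at 1.46 FPKM in pineal gland and 0.0363 in retina. SLURP2, which lies between LYPD2 and LYNX1, was not analysed here. Among neighbours of the other members, LRRC71 and PEAR1, both near ETV3L, were at 5.41 FPKM in pineal gland against 0.455 in retina and 3.02 against 0.224. ARHGEF11, which lies between ETV3L and LRRC71, was lower in pineal gland, at 15.6 FPKM against 23.0. PPP1CC next to CCDC63 was at 55.9 and 49.2, and PPP1R2 next to APOD at 19.6 and 12.9.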

How the data were processed

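RNA sequencing of 26 libraries was used. Reads were handled with FastQC, STAR 2.3.0e, Subread, featureCounts and DESeq2 against the human build hg19, per the submitters' processing notes. The authors deposited FPKM values per gene. Per the file headers, the authors' comparison tables hold the mean signal per gene as a normalised count, the log2 fold change, a test score and p-values. The annotation and strandedness are not given in the sources used here. Because human gene models served for macaque reads, diverged genes may lose reads, and related or overlapping genes may share them. The authors' table headed pineal gland against control was identical in all 50308 rows to that headed retina against control, with a mean normalised count of 0.395 for LYPD2, and was not used.

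Whole reads were recovered from the FPKM steps for 42804 of 42804 genes above 0 (100% of values whole within 0.0001 reads), and for 2117 genes above 0 in 1 library the steps do not fix the number. limma 3.58.1 (R 4.3.3) was fitted to log2(FPKM + 0.5), which understates changes of low genes, with a filter of FPKM 1 in 3 libraries, empirical Bayes with a trend and Benjamini-Hochberg adjustment over all genes tested in 9 comparisons. All tests apart from the F tests were two-sided. Simulated data were used to check the pineal midnight minus mid-day contrast and the recovery of reads. A gene listed at 0 in a library was taken to allow up to 3 reads, and 95% intervals are exact and cover counting error only. Correlations used 100000 permutations. Python 3.11.15, numpy 2.4.6, pandas 2.3.3, scipy 1.17.1 and matplotlib 3.10.9 were used. Marker and family lists name genes by symbol. Of the 50308 names 16438 (32.7%), and all 4 members, were in the RefSeq gene table, used for names and gene order.

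The members and lists were chosen with earlier results of these data known. The genes named are the members, the 3 most correlated with each, the 3 highest of each family, ETV3, family genes called between times, and genes next to a member in rank. The filter on clone and locus names in the correlated genes, the 20 and 0.2 FPKM limits, the spermatid list and the neighbour genes were set after the values were seen. That name filter also dropped every gene whose name ends in P and a number, such as SLURP1 and AQP4. Alternatives were other pseudocounts, no filter, upper-quartile scaling, voom on the recovered reads, an indicator of XIST above EIF1AY, a replicate block and leaving out each library. Libraries of a group come from animals of a wide age range, and p-values rest on their spread.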

Additional observations from a re-analysis of the deposited data

How the results depend on the processing

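None of the 675 values of members under alternatives in the time comparisons passed an adjusted p of 0.05, and the lowest was 0.201, that of LYPD2 in dusk minus dawn without mid-day 3. The sign changed in 27 of them, each an uncalled difference, among them midnight minus dusk for LYPD2 with the XIST indicator (-0.0026) and for CCDC63 with voom (-0.0035). With one library left out at a time, log2 differences with a changed sign ran as follows. For LYPD2 they were -0.21 to 0.55 in dusk minus mid-day, -0.11 to 0.38 in midnight minus dusk and -0.12 to 0.64 in midnight minus mid-day. For ETV3L they were -0.062 to 0.43 in dawn minus midnight, -0.12 to 0.27 in dusk minus dawn and -0.14 to 0.35 in midnight minus mid-day. For CCDC63 they were -0.65 to 0.12 in mid-day minus dawn, -0.27 to 0.36 in midnight minus dusk, -0.63 to 0.14 in dawn minus midnight and -0.14 to 0.62 in dusk minus dawn. For APOD they were -0.20 to 0.17 in dusk minus mid-day, -0.061 to 0.34 in midnight minus dusk and -0.085 to 0.37 in midnight minus mid-day. The correlations between members that changed sign ran from -0.25 to 0.35 for CCDC63 with LYPD2, -0.12 to 0.44 for CCDC63 with ETV3L, -0.082 to 0.26 for APOD with ETV3L and -0.14 to 0.43 for APOD with CCDC63. The number of relations passing went from 0 to 3.

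Counts of genes called moved more than the members did, and the cause was not tested. Leaving out one library gave 4 to 378 genes over the 4 pineal times, 0 to 182 in mid-day minus dawn, 0 to 5 in dusk minus mid-day, 0 to 290 in midnight minus dusk, 0 to 1 in dawn minus midnight, 0 to 397 in dusk minus dawn, 0 to 252 in midnight minus mid-day, 0 to 2 over the retina times and 11 to 278 for tissue by time. Apart from dusk minus mid-day, dawn minus midnight and the retina, the highest count was reached without pineal mid-day 3. With no filter the counts were 12 in mid-day minus dawn, 5 in midnight minus dusk, 5 in dawn minus midnight, 49 in dusk minus dawn, 14 in midnight minus mid-day and 7 in retina. Upper-quartile scaling gave 10 in mid-day minus dawn and 4 in midnight minus dusk. With voom there were 3 in mid-day minus dawn, 0 in dusk minus mid-day (753 at an unadjusted p under 0.05), 2 in midnight minus dusk, 4 in midnight minus mid-day and 9 for tissue by time. The XIST indicator gave 6 over the 4 pineal times, 2 in mid-day minus dawn, 3 in midnight minus dusk, 31 in dusk minus dawn, 2 in midnight minus mid-day and 33 for tissue by time. A pseudocount of 0.1 gave 1 in dawn minus midnight and 35 for tissue by time. Same-numbered pineal libraries correlated over 0.1 in 6 of 18 pairs. Their median correlation was 0.057, beside -0.024 for libraries of other numbers. Whether the numbers pair the samples cannot be told from these values. With the replicate block the counts were 43 over the 4 pineal times, 21 in mid-day minus dawn, 34 in midnight minus dusk, 204 in dusk minus dawn, 2 in retina and 4 for tissue by time, and the block gave no call of a member.

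The pineal excess over retina moved with the pseudocount. With 0.1 it was 10.29 for LYPD2, 9.91 for ETV3L, 9.82 for CCDC63 and 7.76 for APOD, and with 1 it was 7.16 for LYPD2, 6.82 for ETV3L and 6.75 for CCDC63. Depth limits what can be said of LYPD2, ETV3L and CCDC63 outside the pineal gland, where most libraries hold 0 or 1 read.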
